A study of Arabidopsis thaliana with 29 samples.

Results

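The genes described here are those encoded in the chloroplast genome of Arabidopsis thaliana, taken as every gene whose identifier begins with ATCG, which gave 133 of the 33341 genes in the table of total reads. The choice used the identifier alone and no measured value. Reads were counted in 29 libraries of polyadenylated RNA, of which 27 came from hand-isolated hybrid embryos and 2 from unfertilized ovules of the accession Col-0. The embryos came from reciprocal crosses of Col-0 and Tsu-1 at 7 stages: zygote, octant, globular, heart, torpedo and bent embryos and the mature embryo. In the first cross direction Col-0 was the mother and Tsu-1 the father (Col-0-mother embryos), and in the other Tsu-1 was the mother (Tsu-1-mother embryos), so embryos of both directions are hybrids with the same nuclear alleles. Each of the 15 groups had 2 biological replicates, except the Col-0-mother zygotes with 1 library, which joined 3 technical libraries of the same RNA. The first globular Col-0-mother library joined 2 technical libraries. The p-values below measure the spread between these few libraries, and in tests that involve the single Col-0-mother zygote library that library is assumed to vary like the other groups.

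Plastids keep a small genome of their own that encodes subunits of the photosystems, the ATP synthase and an NADH dehydrogenase-like complex, the large subunit of Rubisco, ribosomal RNAs and proteins, tRNAs and the core of a bacterial-type RNA polymerase. That polymerase works with sigma factors and associated proteins encoded in the nucleus, and a phage-type polymerase, also nuclear, transcribes other plastid genes. In Arabidopsis plastids are inherited from the mother, and the embryo greens during its middle stages and loses its green colour as the seed matures. The reciprocal crosses therefore also set Col-0 plastids against Tsu-1 plastids. Most plastid transcripts carry no poly(A) tail, and tails added to them mark RNA for decay. Levels from a poly(A) library are therefore levels of the captured RNA and need not follow the full plastid RNA pool.

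The files gave identifiers without names. Notes in RefSeq's TAIR10.1 record were used to name 5 of the 133 genes, namely ATCG00430, noted as photosystem II reaction center protein G (an old name for what is now known as a subunit of the NADH dehydrogenase-like complex), the proton extrusion protein cemA (ATCG00530), the ribosomal proteins rpl20 (ATCG00660) and rpl2 (ATCG01310), and the protease subunit clpP (ATCG00670). The other genes described here are given by identifier, and nothing is said of their function. Counts of 14 pairs of identifiers (28 genes) matched, with a median ratio of the lower to the higher count of at least 0.9 and a correlation of log2 counts of at least 0.99. The genes of a pair, such as ATCG00830 and rpl2, may share reads, so their values are not independent and were treated as uncertain. Counts and percentages of genes below include both genes of a pair, so the same reads may count in both. The library kit does not mark strand, so reads from overlapping genes on opposite strands cannot be told apart.

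Library totals ran from 0.690 M to 60.4 M reads (M, reads divided by 1000000) and chloroplast reads from 2980 to 396268 per library. The second bent Tsu-1-mother library (0.690 M), the second globular Tsu-1-mother library (1.49 M) and the second ovule library (2.85 M) were the shallow libraries, with 32, 63 and 72 chloroplast genes at 10 reads or more against 85 to 131 in the others. The single Col-0-mother zygote library stood apart: mitochondrial genes took 1.21% of its reads, against 0.0109% to 0.416% elsewhere. The first heart Tsu-1-mother library stood apart in its chloroplast reads, as given below. Levels are given as CPM, a gene's reads scaled to a library of 1000000 reads. Seed coat markers (17 genes) summed to 5569 to 7261 CPM at zygote, 3809.9 to 6115 at octant and 889.5 to 1920.1 at globular, against 334 and 342 in ovules. All 17 were detected in each zygote, octant and globular library. Endosperm markers (11 genes) summed to 29.0 to 117 CPM over the same stages, again with no marker at 0, and embryo markers to 661 to 2775. The part of seed coat or endosperm RNA in the chloroplast values at these stages was not tested. Seed storage and oil body genes (10 genes) took 69221 to 477541 CPM at bent and 187000 to 614364 at mature. The higher values were those of Col-0-mother libraries at both stages. Their group means, Col-0 mother first, were 1323 and 60.6 CPM in zygotes, then 150 and 34.3 in octants. Globular embryos had 48.0 and 347, and the crosses did not overlap at any of these earlier stages. Means were 41.9 and 1657 in hearts, then 2209 and 2569 in torpedoes, with overlapping crosses. The part of these differences between crosses in the chloroplast results was not tested.

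Of the 133 genes, 26 had at least 10 reads in every library, 106 in some and 1 (ATCG01030) in none. The CPM are not per length, so they are not compared between genes except as shares of reads. Averaged over the 15 groups with equal weight, ATCG01130 alone made up 25.0% of the chloroplast reads, the 5 highest genes 47.5% and the 10 highest 61.8%. ATCG01130 averaged 1878 CPM, followed by ATCG00380 with 577, ATCG00440 with 404, ATCG00740 with 381, ATCG00790 with 332, rpl2 with 299.9, its matched partner ATCG00830 with 270.02, ATCG00720 with 197, ATCG00800 with 158 and ATCG00340 with 146. The clpP gene averaged 127. When each gene was assigned to the stage of its highest mean level, 55 genes (41.4%) peaked at torpedo, 23 at zygote, 18 at heart, 14 at mature, 13 in ovules, 7 at octant, 3 at globular and 0 at bent. Of all genes with reads, 17.7% peaked at torpedo, 13.0% at zygote, 6.92% at heart, 9.36% at mature, 27.5% in ovules, 11.9% at octant, 6.70% at globular and 6.83% at bent. In the same order the chloroplast percentages after torpedo were 17.3%, 13.5%, 10.5%, 9.77%, 5.26%, 2.26% and 0%. Stage means weighted the crosses equally, so the single Col-0-mother zygote library counted as much as the Tsu-1-mother zygote libraries together. How many of the zygote peaks rest on that library was not tested.

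The share of library reads from chloroplast genes was on average highest at octant, heart and torpedo and lowest at mature, and at most stages the crosses did not overlap. Heart's place rested on 1 library: without the first Tsu-1-mother library its mean was 0.668%, next to 0.634% at globular. Ovules had 0.408% and 0.407%. The Col-0-mother zygote library had 0.656%, and the Tsu-1-mother zygotes 0.139% and 0.218%. At octant the share was 0.870% and 0.885% with a Col-0 mother and 1.40% and 1.61% with a Tsu-1 mother, so every octant library lay above every zygote and ovule library. At globular it was 0.457% and 0.952% against 0.759% and 0.367%, in the same order of crosses. These 4 values interleave and overlap with the zygotes.

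At heart the share was 0.648% and 0.522% with a Col-0 mother and 2.37% and 0.835% with a Tsu-1 mother. At torpedo it was 0.505% and 1.36% against 2.19% and 1.55%. The highest shares of the series were thus in the first heart and first torpedo Tsu-1-mother libraries. At bent it was 0.192% and 0.400% against 0.799% and 0.432%, and at mature 0.0672% and 0.184% against 0.368% and 0.330%. The mean over the 4 libraries was 1.09% for heart, 1.40% for torpedo (SD 0.696, n = 4), 0.456% for bent and 0.237% for mature (SD 0.138, n = 4). Every mature library lay below every octant and torpedo library, and 3 of the 4 bent libraries did so too (the fourth, at 0.799%, lay above the first torpedo Col-0-mother library). Wilson 95% intervals from counting error were narrow, at most 0.417% to 0.448% around the 0.432% of the shallowest library. Reads amplified from the same molecule are not independent, so these intervals leave out all but the counting error. No test is given for this sum over the genes. In these bulk libraries more plastid-rich cells and more chloroplast RNA per cell cannot be told apart.

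**Figure D1:**
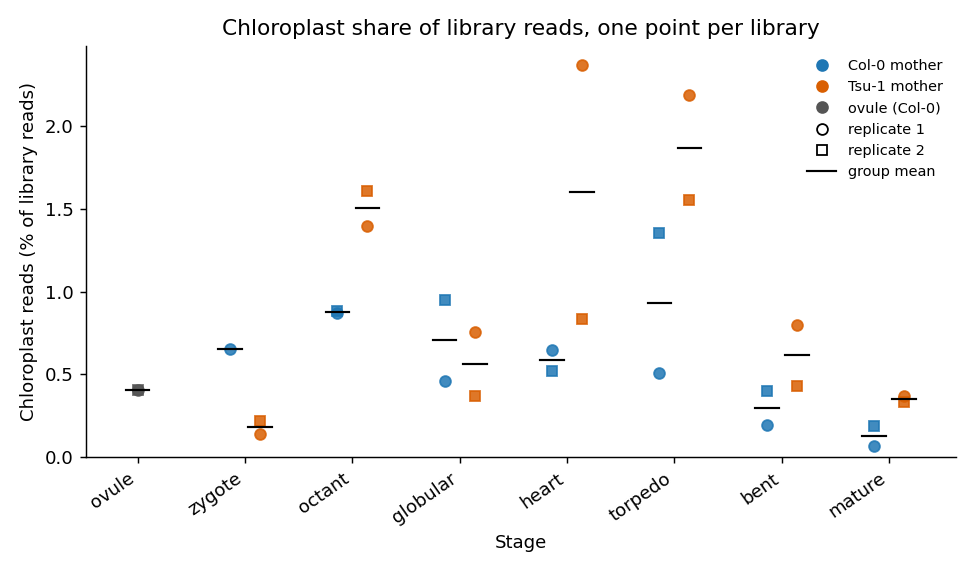
Chloroplast reads as a percentage of all reads assigned to genes (vertical axis) by stage (horizontal axis), with a point for each library, colour for the mother and a bar for each group mean. Mean shares were highest at torpedo and octant and lowest at mature, the heart mean of 1.09% was 0.668% without its highest library, and libraries with a Tsu-1 mother lay above those with a Col-0 mother at octant, heart, torpedo, bent and mature.

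The crosses did not overlap at 6 of the 7 stages. With a Tsu-1 mother both libraries lay above both Col-0-mother libraries at octant, heart, torpedo, bent and mature, with ratios of group means of 1.72, 2.74, 2.01, 2.08 and 2.78. At zygote the order was the opposite, with the single Col-0-mother library 3.67 times the mean of the Tsu-1-mother libraries, and at globular the crosses overlapped. The same order held at each stage when ATCG01130 was left out, with ratios for the same 5 stages of 1.21, 2.12, 1.85, 2.21 and 2.76. With 2 libraries a group, replicates of a cross could differ as much as the crosses: the higher replicate was 2.84 times the lower in heart Tsu-1-mother embryos, 2.74 times in mature and 2.69 times in torpedo Col-0-mother embryos. In Col-0-mother embryos the second replicate was the higher at globular, torpedo, bent and mature, and the first replicates of these groups were deep libraries of 26.8 to 45.3 M reads. The part of depth or library type in these replicate differences was not tested.

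ATCG01130 set much of the octant value. Its share of the chloroplast reads was 2.94% to 5.67% in the zygote libraries, against 43.1% and 42.9% in the Col-0-mother and 58.0% and 61.7% in the Tsu-1-mother octants. In CPM it went from 372 in the Col-0-mother zygotes and 41.0 and 74.5 in the Tsu-1-mother zygotes to 3748 and 3800.2, and 8115 and 9931, in the octants. The groups did not overlap. In the other 132 genes together the octant share of library reads was 0.496% to 0.618%, within the range of the zygote, globular and heart libraries.

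After octant the gene varied widely among replicates. In globular embryos it had 456 and 3181 CPM with a Col-0 mother and 2118 and 361 with a Tsu-1 mother. Heart libraries had 743, 369, 8979 and 626, and torpedo libraries 149, 2616, 5551 and 2590.1, in the same order. At bent it had 51.7, 491, 358 and 79.7, and at mature 14.8, 152, 299 and 204. In Col-0-mother embryos the second replicate exceeded the first 6.97-fold at globular, 17.5-fold at torpedo, 9.49-fold at bent and 10.3-fold at mature, but 1.01-fold at octant.

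**Figure D2:**
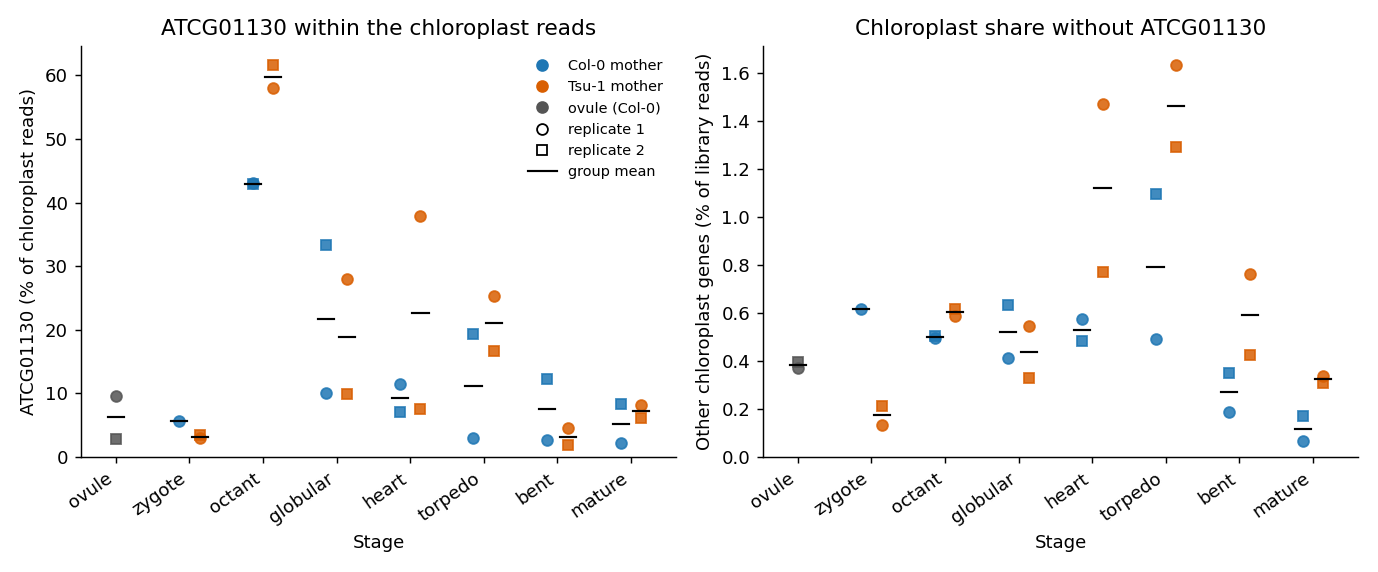
Left, reads of ATCG01130 as a percentage of the chloroplast reads of each library. Right, the share of library reads from the other 132 chloroplast genes. Points are libraries and bars group means. ATCG01130 took 42.9% to 61.7% of the chloroplast reads in the 4 octant libraries and 2.94% to 5.67% in the 3 zygote libraries.

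The 5 genes named here followed different courses. The large-subunit ribosomal protein gene rpl2 was already at 584 CPM in the Col-0-mother zygotes but at 73.6 and 115 in the Tsu-1-mother zygotes, and lay at 246 to 321 in all octants. Its level was 254 and 268 in Col-0-mother and 1066 and 560.2 in Tsu-1-mother hearts, and 12.2, 21.0, 72.9 and 73.5 at mature.

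The protease subunit gene clpP had 172 to 271 CPM at octant, 55.2 to 606 at globular, 47.0 to 474 at heart and 32.1 to 205 at torpedo, with the replicates of a cross up to several-fold apart. Levels of rpl20, another large-subunit ribosomal protein gene, were 69.0 in the Col-0-mother zygote library and 0.810 and 1.00 in the Tsu-1-mother zygotes. Outside that library it stayed at 11.3 or below. ATCG00430 was at 12.5 or below in 28 libraries and at 61.9 in the first heart Tsu-1-mother library. The gene cemA was at 24.7 in the second torpedo Col-0-mother library and at 8.61 or below in the other 28. In the shallowest library (the second of bent Tsu-1-mother) ATCG00430, cemA and rpl20 had 0 reads.

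Per kilobase of the RefSeq coding length, at torpedo, rpl2 had 559.8 ± 170.3, clpP 224 ± 124, cemA 14.1 ± 14.8 and rpl20 14 ± 8.37 CPM per kilobase (mean ± SD, n = 4). The levels of cemA and rpl20 did not differ beyond their spread.

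**Figure D3:**
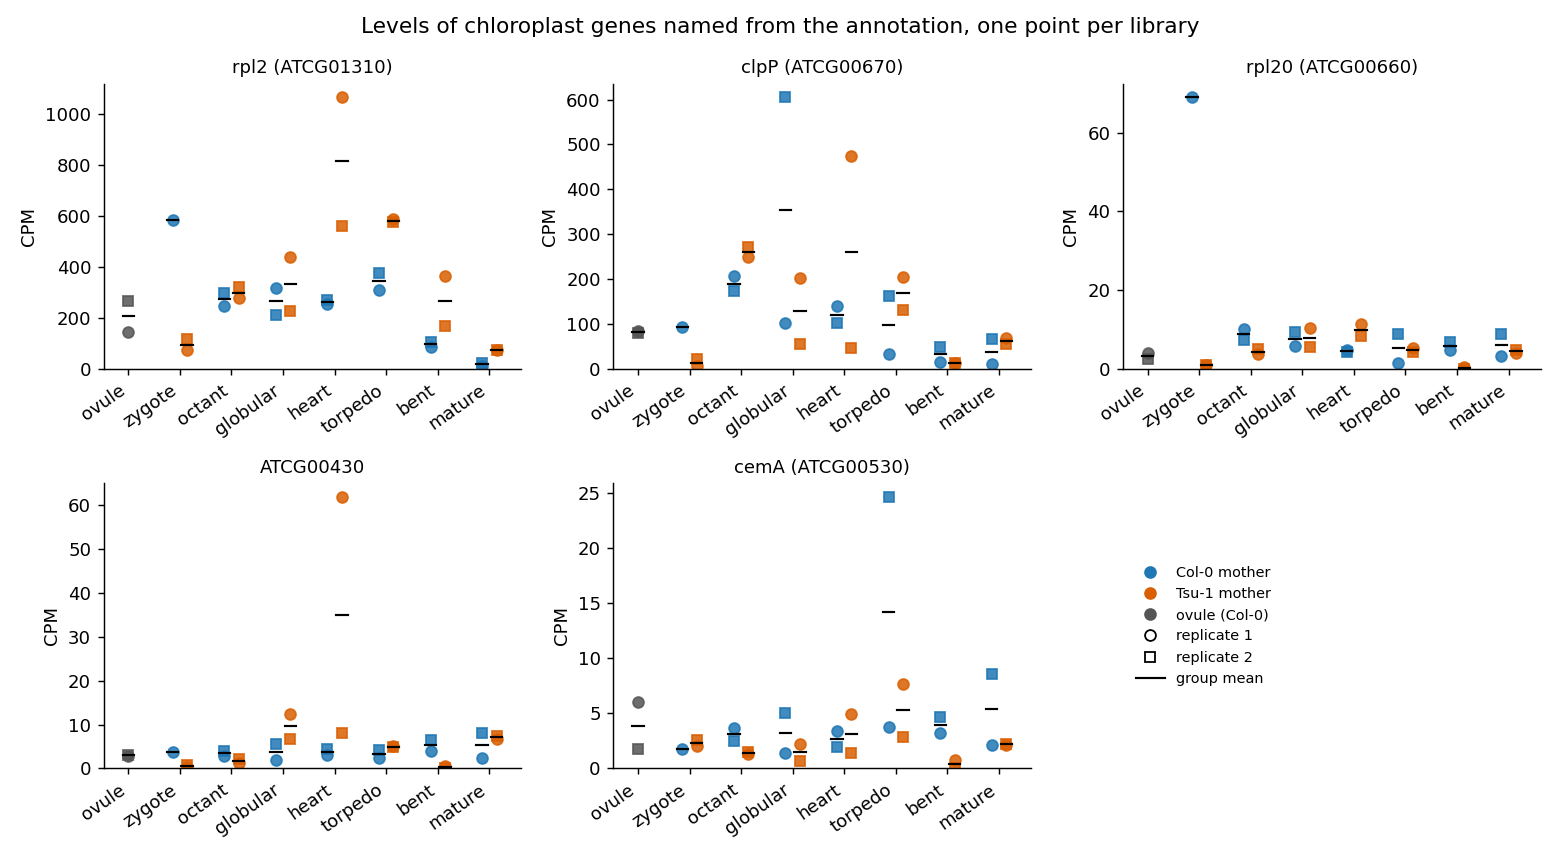
CPM (vertical axes, each from 0) of 5 named chloroplast genes by stage, with a point for each library and a bar for each group mean. The rpl20, ATCG00430 and cemA panels each hold a single library far above the rest.

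Changes between consecutive stages were then tested in each gene with edgeR's quasi-likelihood test on rounded counts with TMM scaling and cross as a covariate. A gene was called where its Benjamini-Hochberg adjusted p over all genes tested was under 0.05. TMM scaling sets the bulk of genes to no change, so a call is a change relative to most genes and not in share of reads. Scaling by library totals, which follows the share, moved the median of all genes by 0.58 (zygote to octant), -0.16 (octant to globular), 0.27 (heart to torpedo), -0.83 (torpedo to bent), -0.93 (bent to mature) and -0.75 (ovule to zygote) on the log2 scale. From globular to heart the shift was 0.09. Counts under that scaling are given beside the TMM counts. The share of all genes called is given for the main TMM fits only. Counts from library totals, other fits or a library left out have no such share beside them. Chloroplast genes passing the filter on low counts numbered 103 to 125 of 133 in these comparisons.

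From ovule to zygote, 11 chloroplast genes were higher and 3 lower of 125 tested, against 8.80% of all genes called (4.87% higher, 3.93% lower). ATCG00980 and ATCG01150, whose counts were alike in these libraries, had 0.0986 and 0.175 CPM in ovules, from 3 reads in all, and 3.08 to 6.57 in zygotes (edgeR adjusted p = 0.0218 and 0.0220). No fold is given for them because it depends on so few ovule reads. In the other direction, ATCG00620 had 3.86 and 7.14 in ovules and 0.0507 to 0.20 in zygotes (-4.74 ± 0.93, SE, edgeR adjusted p = 0.0296), and ATCG00065 had 5.26 to 12.3 in ovules and 0.0507 to 0.298 in zygotes (-4.91 ± 0.93, SE, edgeR adjusted p = 0.0268). Over the 125 genes the median log2 fold change was 0.34, against 0.10 over all genes. Under library totals the split turned to 5 higher and 13 lower. Leaving out the Col-0-mother zygote library gave 65 calls (22 higher, 43 lower). That fit set Col-0 ovules against Tsu-1-mother zygotes alone, so stage, tissue and plastid genotype cannot be told apart in it. The step had no cross covariate, because ovules have no cross. The count was 5 and 1 without the first and second Tsu-1-mother zygotes, and 0 without either ovule library.

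From zygote to octant, 25 genes were higher and 25 lower of 104 tested, against 34.7% of all genes called (16.7% higher, 18% lower). The genes that rose included ATCG01020, from between 0.405 and 6.5 CPM in zygotes to between 153 and 234 in octants (log2 fold change 5.36 ± 0.80, SE, edgeR adjusted p = 0.00445), ATCG01130 (edgeR adjusted p = 0.00871) and clpP (2.36 ± 0.76, edgeR adjusted p = 0.0461). The matched pair ATCG00990 and ATCG01140 fell from between 3.37 and 11.1 in zygotes to between 0.261 and 0.400 in octants (-4.83 ± 0.65, SE, edgeR adjusted p = 0.00363). None of these zygote and octant libraries overlapped. Under library totals 32 genes were higher and 18 lower. Without the Col-0-mother zygote library 48 were higher and 26 lower.

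From octant to globular, 15 genes were higher and 7 lower of 103 tested, against 37.1% of all genes called (16.9% higher, 20.2% lower). The log2 level of ATCG01130 fell by 1.87 (SE 0.66, edgeR adjusted p = 0.0448) and that of ATCG01020 by 2.11 (SE 0.65, edgeR adjusted p = 0.0243), from between 153 and 234 CPM to between 4.04 and 88.9. ATCG00430 rose by 1.40 (SE 0.50, edgeR adjusted p = 0.0470), although its 4 octant values, 1.11 to 4.0, overlapped with the globular values of 1.97 to 12.5. ATCG00310 rose from between 0.115 and 0.609 to between 1.10 and 5.44 (2.82 ± 0.56, SE, edgeR adjusted p = 0.00277). ATCG00860, of a matched pair, rose from between 3.51 and 10.1 to between 10.4 and 70.0 (2.08 ± 0.61, SE, edgeR adjusted p = 0.0193). Library totals gave 10 higher and 9 lower. Without the first or the second octant Tsu-1-mother library 13 genes were called.

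From globular to heart, 10 genes were higher (8.85%) and 0 lower of 113 tested, against 16.3% of all genes called (6.38% higher, 9.87% lower). ATCG00720 rose from between 59.7 and 111 CPM to between 169 and 337 (1.67 ± 0.30, SE, edgeR adjusted p = 0.00315) and ATCG00730 from between 31.5 and 73.1 to between 105 and 174 (1.52 ± 0.29, SE, edgeR adjusted p = 0.00440). The median of the 113 genes was 0.32, against 0.02 over all genes. Library totals also gave 10 higher and 0 lower. Leaving out a library gave 4 calls without the first or the second heart Col-0-mother library, and 5 and 6 without the first and second globular Tsu-1-mother libraries. Without the first heart Tsu-1-mother library there were 5 higher and 3 lower.

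From heart to torpedo, 12 genes were higher and 0 lower of 113 tested, against 20.2% of all genes called (10.1% higher, 10.1% lower). ATCG00580 rose from between 2.17 and 6.37 CPM to between 26.3 and 71.9 (3.11 ± 0.25, SE, edgeR adjusted p = 0.000206) and ATCG00710 from between 0.372 and 1.18 to between 3.47 and 18.8 (3.0 ± 0.48, SE, edgeR adjusted p = 0.00324). The stages did not overlap for either gene. Under library totals 17 were higher and 0 lower. Without the first heart Col-0-mother library 7 genes were called, without the first heart Tsu-1-mother library 21, and without the second torpedo Col-0-mother library 26 (15 higher, 11 lower).

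From torpedo to bent 23 genes were lower (21.1%) and 2 higher (1.83%) of 109 tested, against 44.7% of all genes called (22% higher, 22.6% lower). The part called lower was thus near that of all genes. The median log2 fold change of the 109 was -0.76 against -0.03 over all genes. The matched pair ATCG00930 and ATCG01200 fell by 2.95 and 2.99 (SE 0.48 and 0.47, edgeR adjusted p = 0.000332 and 0.000254). The called higher genes were ATCG00350 and ATCG00270, with 1.00 ± 0.28 and 0.89 ± 0.31 (SE, edgeR adjusted p = 0.0104 and 0.0347), and their CPM overlapped between the stages. Under library totals, which moved the median of all genes downward in this step, 73 genes were lower and 0 higher. Without the first torpedo Col-0-mother library 50 genes were called, and without the second bent Col-0-mother library 40.

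From bent to mature the split depended on the scaling. With TMM 32 genes were higher and 4 lower of 113 tested, against 54.8% of all genes called (25.5% higher, 29.3% lower). With library totals, which here too moved the median of all genes downward, 0 were higher and 21 lower. The ribosomal protein gene rpl2 fell by 1.30 (SE 0.33, edgeR adjusted p = 0.00749), and its matched partner ATCG00830 by 1.2 (SE 0.31, edgeR adjusted p = 0.00813), with every mature library below every bent library. ATCG00430 (2.09 ± 0.72), clpP (2.04 ± 0.66), rpl20 (1.99 ± 0.64) and cemA (1.74 ± 0.52, all SE) were called higher with edgeR adjusted p of 0.0309, 0.0234, 0.0225 and 0.0161. Their CPM overlapped between the stages. The larger fitted rises were those of ATCG01060, from between 0 and 1.53 CPM to between 1.2 and 4.27 (2.88 ± 0.83, SE, edgeR adjusted p = 0.0139), and of ATCG01230, of a matched pair, from between 4.35 and 13.5 to between 11.3 and 108 (2.80 ± 0.79, SE, edgeR adjusted p = 0.0127), and these also overlapped. As given above, the storage and oil body genes took a large part of the reads at both stages, and their part in these changes was not tested. Without the first or second bent Tsu-1-mother library 17 and 22 genes were called, and without the second bent or first mature Col-0-mother library 56 and 57.

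**Figure D4:**
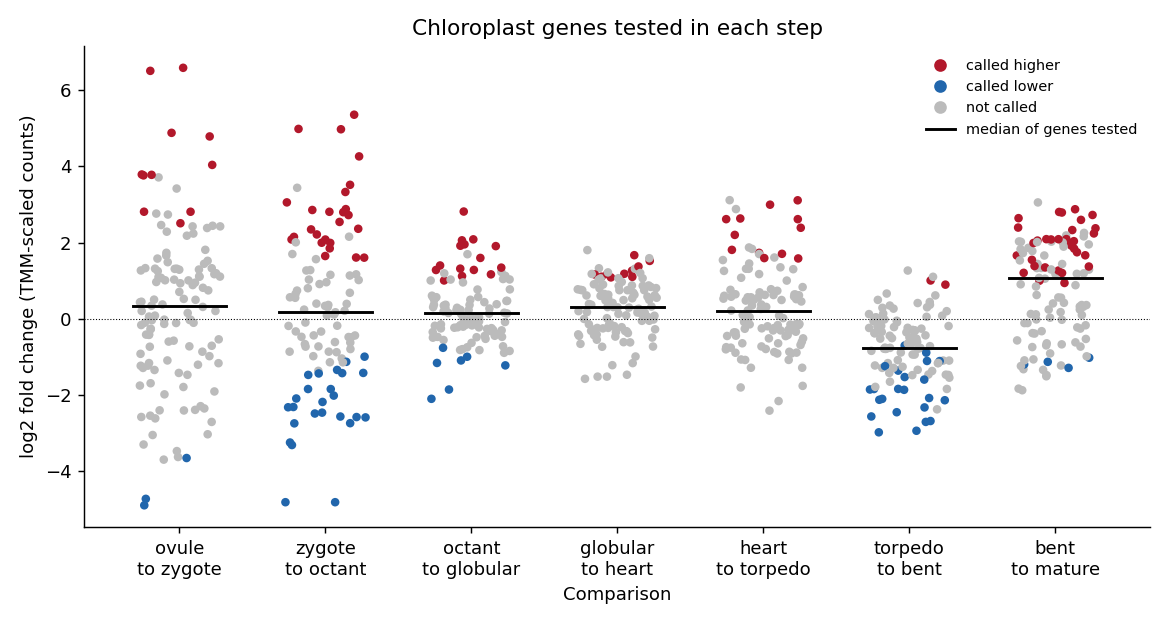
Log2 fold changes (TMM-scaled counts, vertical axis) of the chloroplast genes tested in each step (horizontal axis). Red and blue points were called higher and lower at an edgeR adjusted p under 0.05, and black bars are medians of the genes tested. The median was -0.76 from torpedo to bent and 1.07 from bent to mature, where scaling by library totals left 0 genes called higher and 21 lower.

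Nuclear genes of plastid transcription (20 genes for the phage-type polymerases, sigma factors and polymerase-associated proteins) were read beside them. In the steps, 19 of the 20 were tested. From zygote to octant 1 was higher and 8 lower (34.7% of all genes called), and from octant to globular 11 and 1 (37.1%). Then 7 and 0 were called from globular to heart (16.3%) and 5 and 0 from heart to torpedo (20.2%). The last steps gave 2 and 15 from torpedo to bent (44.7%) and 3 and 5 from bent to mature (54.8%). Their summed level was 307 to 337 CPM at octant, 1288 to 1510.4 at torpedo and 80.0 to 195 at mature. Both ovules lay at 333 and 385. Their medians were 0.73, 0.71 and 0.67 in the 3 steps from octant to torpedo and -1.99 from torpedo to bent, against medians of all genes between -0.03 and 0.03.

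The 4 nuclear genes of the Rubisco small subunit, which partners with the plastid-encoded large subunit, were counted in the same steps. All 4 were called lower from octant to globular (median -1.58, with 37.1% of all genes called). From globular to heart 1 was higher and 3 lower, and from heart to torpedo 3 were higher and 0 lower (median 3.55). From torpedo to bent 0 were higher and 3 lower. In that step RBCS1A, the gene with the highest mean level of the 4, was not called (0.70 ± 0.32, SE, edgeR adjusted p = 0.0905). The summed level of the 4 genes was 147 to 220 CPM at globular and 358 to 1152 at heart, a rise despite the 3 genes called lower. Their summed level at torpedo was 5213 and 5347 CPM with a Col-0 mother and 1196 and 1145 with a Tsu-1 mother. At that stage the chloroplast share had the opposite order of crosses. From bent to mature all 3 genes tested were lower (54.8% of all genes called).

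Each stage's reciprocal crosses were then set against each other in a group-means model of all 29 libraries. The difference was the level with a Tsu-1 mother minus that with a Col-0 mother, with 128 of the 133 genes tested. The crosses differ in plastid genotype, so plastid sequence, read mapping and RNA level cannot be told apart in these differences. Of the 128 genes, 3 were higher and 35 lower in Tsu-1-mother zygotes, against 39.8% of all genes called (17.2% higher, 22.6% lower). The median of the 128 genes was -1.18 against -0.08. The difference was -5.83 ± 0.62 for rpl20, -2.30 ± 0.51 for rpl2, -2.67 ± 0.97 for clpP and -2.40 ± 0.75 for ATCG00430 (log2, SE), with edgeR adjusted p of 1.05e-07, 0.000841, 0.0302 and 0.0130. All rest on the single Col-0-mother library, which has no spread of its own, so these errors and p-values take their spread from the other groups of the model. The mitochondrial share of that library was 15.4 times that of the other zygotes, and its summed storage and oil body level 21.8 times. ATCG00630 had 0.944 CPM in that library and 0 reads in both Tsu-1-mother libraries (edgeR adjusted p = 0.00521). Library totals, which shifted all genes by -0.36, gave 1 higher and 41 lower. Without the first Tsu-1-mother zygote library 21 genes were called. ATCG00450 was higher with a Tsu-1 mother, at 2.13 and 14.5 against 0.749 CPM (3.54 ± 1.00, SE, edgeR adjusted p = 0.00665), as was ATCG00060, at 0.279 and 0.20 against 0.0331 from 2 reads (edgeR adjusted p = 0.0462).

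At octant and globular few genes were called between the crosses in the model of all libraries. At octant ATCG00280 alone was called, at 6.06 and 7.39 CPM with a Col-0 mother and 18.0 and 18.1 with a Tsu-1 mother (1.46 ± 0.36, SE, edgeR adjusted p = 0.0198), against 3.48% of all genes called (1.45% higher, 2.03% lower). Library totals left 1 higher and 0 lower. Without any of the 4 octant libraries 0 genes were called. A fit to the octant libraries alone called 40, and the share of all genes called in that fit is not given. At globular 1 gene was higher and 2 lower, against 0.750% of all genes (0.383% higher, 0.367% lower). ATCG00470 had 264 and 265 with a Col-0 mother and 54.0 and 55.9 with a Tsu-1 mother (-2.54 ± 0.40, SE, edgeR adjusted p = 0.00134), and ATCG00250 had 0.502 and 1.35 against 8.41 and 9.48 (3.22 ± 0.64, SE, edgeR adjusted p = 0.0125). ATCG00160, the third, differed by -2.19 ± 0.52. Library totals, which shifted all genes by 0.29, gave 1 higher and 1 lower. Without the first globular Col-0-mother library 1 gene was called, and without the first Tsu-1-mother library 0.

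In Tsu-1-mother hearts 8 genes were higher and 6 lower, against 7.53% of all genes called (4.94% higher, 2.59% lower), and 9 higher and 2 lower with library totals (shift of all genes 0.24). ATCG00480 had 182 and 232 CPM with a Col-0 mother and 24.5 and 35.7 with a Tsu-1 mother (-3.05 ± 0.47, SE, edgeR adjusted p = 0.000507). ATCG00340 had 308 and 336 against 101 and 75.1 (-2.13 ± 0.47, SE, edgeR adjusted p = 0.00655). ATCG00650 went the other way, with 5.98 and 24.3 against 135 and 402.5 (3.85 ± 0.88, SE, edgeR adjusted p = 0.00854), as did ATCG01120, with 0.677 and 0.622 against 20.3 and 1.61 (3.76 ± 0.96, SE, edgeR adjusted p = 0.0164), and ATCG00430, with 3.13 and 4.43 against 61.9 and 8.05 (2.94 ± 0.61, SE, edgeR adjusted p = 0.00429). Without the first Tsu-1-mother library the ATCG01120 difference was 1.06 (edgeR adjusted p = 0.703) and that of ATCG00430 0.88 (edgeR adjusted p = 0.476). Without the first or second Col-0-mother library 4 genes and 1 gene were called, and without the first Tsu-1-mother library 4.

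At torpedo 17 genes were higher and 24 lower, against 13.6% of all genes called (5.97% higher, 7.62% lower). Library totals gave 20 higher and 17 lower. ATCG00340 was now higher with a Tsu-1 mother, at 742 and 540.3 CPM against 40.2 and 49.2 (3.70 ± 0.50, SE, edgeR adjusted p = 6.07e-05), the reverse of its order at heart. ATCG00330 had 268 to 607 against 3.02 to 70.4 (3.53 ± 1.18, SE, edgeR adjusted p = 0.0455). The lower genes with the largest fitted differences had few reads. ATCG00060 had 0.360 and 0.840 CPM with a Col-0 mother, from 18 reads, and 0 reads in both Tsu-1-mother libraries (edgeR adjusted p = 0.0359). ATCG00230 had 1.94 and 1.47 against 0 and 0.0937, the latter from 1 read (edgeR adjusted p = 0.0134). Without the first or the second Tsu-1-mother library 13 genes were called. The median difference of the 128 genes was -0.12, against -0.08 over all genes, while the summed share was 2.01 times higher with a Tsu-1 mother.

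At bent the crosses differed most in the number of chloroplast genes called. With a Tsu-1 mother 7 genes were higher and 62 lower, against 15.8% of all genes called (5.78% higher, 10% lower). Both directions hold both genes of matched pairs, such as ATCG00930 and ATCG01200 among the higher and ATCG00870 and ATCG01270 among the lower. The median of the 128 genes was -2.18, against -0.34 over all genes. Library totals, which shifted all genes by 0.63, gave 19 higher and 42 lower. The reads were concentrated in fewer genes with a Tsu-1 mother: the 10 highest genes held 78.5% and 74.5% of the chloroplast reads, against 44.7% and 55.6%. ATCG00380 had 46.4 and 52.8 CPM with a Col-0 mother and 2666 and 868 with a Tsu-1 mother (4.43 ± 0.64, SE, edgeR adjusted p = 0.000117), and made up 33.4% and 20.1% of the chloroplast reads in the latter. ATCG00930, of a matched pair, had 0.722 and 1.67 against 20.6 and 22.5 (3.30 ± 0.58, SE, edgeR adjusted p = 0.000606). ATCG00065 had 1.81 and 3.47 CPM and ATCG00460 0.830 and 3.43 with a Col-0 mother, and both had 0 reads in both Tsu-1-mother libraries (edgeR adjusted p = 0.00562 and 0.00467).

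Among the named genes at bent, rpl20 had 4.74 and 6.68 CPM with a Col-0 mother and 0.415 and 0 with a Tsu-1 mother (-4.54 ± 0.79, SE, edgeR adjusted p = 0.000591). ATCG00430 (-3.95 ± 0.90) and cemA (-3.20 ± 1.01, both SE) were lower too, with edgeR adjusted p of 0.00457 and 0.0314. The value of 0 comes from the shallowest library. The first Tsu-1-mother library, with 12 M reads, had 85 genes at 10 reads or more, against 110 in the second Col-0-mother library with 11.1 M. The part of depth in the lower calls was not tested. Without the first Tsu-1-mother library 16 genes were called, and without the second 52 (8 higher, 44 lower). Bent Tsu-1-mother libraries also had 69221 and 94069 CPM of storage and oil body genes, against 389664 and 477541 with a Col-0 mother, and seed coat markers at 1142 and 1489 against 469 and 233. The part of these differences in the chloroplast result was not tested.

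In mature Tsu-1-mother embryos 20 genes were higher and 13 lower, against 15.0% of all genes called (6.28% higher, 8.67% lower). Library totals, which shifted all genes by 0.80, gave 34 higher and 6 lower. The ribosomal protein gene rpl2 had 12.2 and 21.0 CPM with a Col-0 mother and 72.9 and 73.5 with a Tsu-1 mother (1.36 ± 0.44, SE, edgeR adjusted p = 0.0371). ATCG00210 had 1.42 and 2.36 against 26.0 and 32.8 (3.18 ± 0.82, SE, edgeR adjusted p = 0.0100), and ATCG00310 had 0.598 and 1.03 against 8.92 and 9.23 (2.73 ± 0.82, SE, edgeR adjusted p = 0.0247). Among the lower genes ATCG00220 had 1.79 and 73.9 against 1.88 and 0.627, which overlap (-5.61 ± 1.55, SE, edgeR adjusted p = 0.0154), and without the second Col-0-mother library it differed by -1.62 (edgeR adjusted p = 0.540). ATCG00840, of a matched pair, had 1.34 and 3.61 against 0.134 and 0.565 (-3.63 ± 0.66, SE, edgeR adjusted p = 0.000563). Without the first Col-0-mother library 15 genes were called, and without the first or second Tsu-1-mother library 11 and 10. Storage and oil body genes stood at 614364 and 587609 CPM with a Col-0 mother and at 187000 and 188452 with a Tsu-1 mother.

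Of the 20 nuclear genes of plastid transcription, all tested, with a Tsu-1 mother 3 were higher and 4 lower at zygote (39.8% of all genes called), 0 and 0 at octant (3.48%) and globular (0.750%), 2 and 0 at heart (7.53%), 2 and 2 at torpedo (13.6%), 2 and 3 at bent (15.8%) and 2 and 1 at mature (15.0%). Of the 4 Rubisco small subunit genes, 4 were higher at zygote and 3 lower at torpedo. At bent and mature 1 was lower at each.

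Whether a step differed between the crosses was tested with the interaction of stage and cross. From zygote to octant 43 genes were called, against 35.9% of all genes (19.5% higher, 16.4% lower), 37 of them with the higher log2 change in Tsu-1-mother embryos. These rest on the single Col-0-mother zygote library, and the spread in this test comes from the other 3 groups of the step. Library totals gave 35 in that direction and 0 in the other (shift of all genes 0.30). The difference in log2 change was 4.88 ± 0.49 for rpl20, 2.48 ± 0.44 for rpl2, 3.15 ± 0.69 for clpP and 3.69 ± 0.55 for ATCG01130 (SE, edgeR adjusted p = 0.000452, 0.00367, 0.00854 and 0.00176). The count was 65 and 70 without the first and second Tsu-1-mother zygotes and 24 to 27 without an octant library.

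From octant to globular ATCG00470 alone was called (-2.19 ± 0.40, SE, edgeR adjusted p = 0.0272), against 1.62% of all genes (1.11% higher, 0.514% lower). Library totals gave 3 calls (shift 0.27). ATCG00470 stood at 73.6 and 76.7 CPM in Col-0-mother and 59.1 and 62.1 in Tsu-1-mother octants. Without any of the 4 octant libraries 0 genes were called. Without the globular libraries in turn 6, 14, 2 and 1 were called, in the order first and second Col-0-mother, first and second Tsu-1-mother. From globular to heart edgeR called 0 chloroplast genes, against 0.175% of all genes (0.0383% higher, 0.137% lower), with 17 at an unadjusted p under 0.05, and DESeq2 called 2. Library totals also gave 0.

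From heart to torpedo 18 genes were called, against 9.65% of all genes (3.82% higher, 5.83% lower), 11 of them with the higher log2 change in Tsu-1-mother embryos. Library totals gave 10 in that direction and 7 in the other. ATCG00340, which swapped its order between the crosses, had a difference of 5.77 ± 0.44 (SE, edgeR adjusted p = 0.00425). ATCG00780 had 104 and 125 CPM in Col-0-mother hearts and 17.7 and 28.3 in torpedoes, against 46.0 to 129.7 and 153 to 266 with a Tsu-1 mother (3.63 ± 0.68, SE, edgeR adjusted p = 0.0185). Without the first and second heart Col-0-mother libraries 5 and 0 genes were called, without the first torpedo Col-0-mother library 30, and without the first and second torpedo Tsu-1-mother libraries 1 and 3. From torpedo to bent ATCG00570 alone was called, against 0.0385% of all genes (0.0165% higher, 0.022% lower). It had 31.8 and 47.5 in Col-0-mother torpedoes, 39.0 and 43.0 in Tsu-1-mother torpedoes, 35.6 and 48.7 in Col-0-mother bent embryos, and 2.90 and 4.89 in Tsu-1-mother bent embryos (-3.81 ± 0.50, SE, edgeR adjusted p = 0.0488). With library totals (shift 0.50) 1 gene was called. The TMM call was lost without 6 of the 8 libraries, and 11 genes were called without the second torpedo Col-0-mother library.

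From bent to mature 28 genes were called, against 3.85% of all genes (1.79% higher, 2.06% lower), 24 of them with the higher log2 change in Tsu-1-mother embryos. The matched pair ATCG00930 and ATCG01200, at 20.5 to 22.5 CPM in the bent Tsu-1-mother libraries and at most 1.67 in every other bent or mature library, had differences of -5.05 ± 0.89 and -4.96 ± 0.88 (SE, edgeR adjusted p = 0.0198 and 0.0207). Library totals gave 27 in that direction and 4 in the other (shift 0.13). The count was 0 without the first bent or the second mature Tsu-1-mother library and 3 without the first mature Tsu-1-mother library. It was 17 without the second bent library of either cross and 50 without the second mature Col-0-mother library. The reciprocal comparisons at neighbouring stages and the interactions share libraries, so they are not separate support for each other.

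The parental origin of chloroplast reads was given for few genes. The authors' deposited table of parental contributions, pooled over the libraries of a group, held 14681 genes, 6 of them chloroplast genes, whose values at variants in introns are given here. With at least 10 variant reads, the authors' deposited table gave 39 values over stages in Col-0-mother embryos, of which 32 were above 50% maternal, with a median of 94.1%. In Tsu-1-mother embryos it gave 28 values, of which 21 were above 50%, with a median of 81.6%. By its adjusted p-values under 0.05 in the authors' deposited table, 13 values were maternal with a Col-0 mother and 1 with a Tsu-1 mother, and 0 paternal in either.

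The genes split into those with the mother's allele higher in both crosses and those that favoured 1 accession in both. In the authors' deposited table ATCG00050 was 87.8% to 99.3% maternal with a Col-0 mother and 97.6% and 98.6% with a Tsu-1 mother, from at most 47 variant reads. ATCG01100 was 77.3% to 99.5% and 65.2% to 89.3%, and ATCG00790, from up to 5522 variant reads, 57.5% to 88.6% and 82.9% to 94.6%, in the authors' deposited table. ATCG00400 reached 10 variant reads only with a Col-0 mother, at 97.5% to 99.0% in the authors' deposited table.

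In the other genes the mother's allele was not the higher in both crosses. In the authors' deposited table ATCG00030 was 79.6% to 96.2% maternal with a Col-0 mother but 22.1% to 45.3% with a Tsu-1 mother at all 7 stages, so the Col-0 allele was the higher in both crosses. ATCG00730 was 9.02% to 28.4% maternal with a Col-0 mother and 70.9% to 83.9% with a Tsu-1 mother in the authors' deposited table, so the Tsu-1 allele was the higher in both. None of the ATCG00730 values, nor any ATCG00030 value with a Tsu-1 mother, had an adjusted p under 0.05 in the authors' deposited table, although single values rested on up to 1875 variant reads. The same held in the authors' deposited table for ATCG00790 in both crosses and for ATCG01100 with a Tsu-1 mother, although their mother's allele was the higher. How the variants were called and whether reads from plastid-like sequence in other genomes were set aside is not given in the sources used here.

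**Figure D5:**
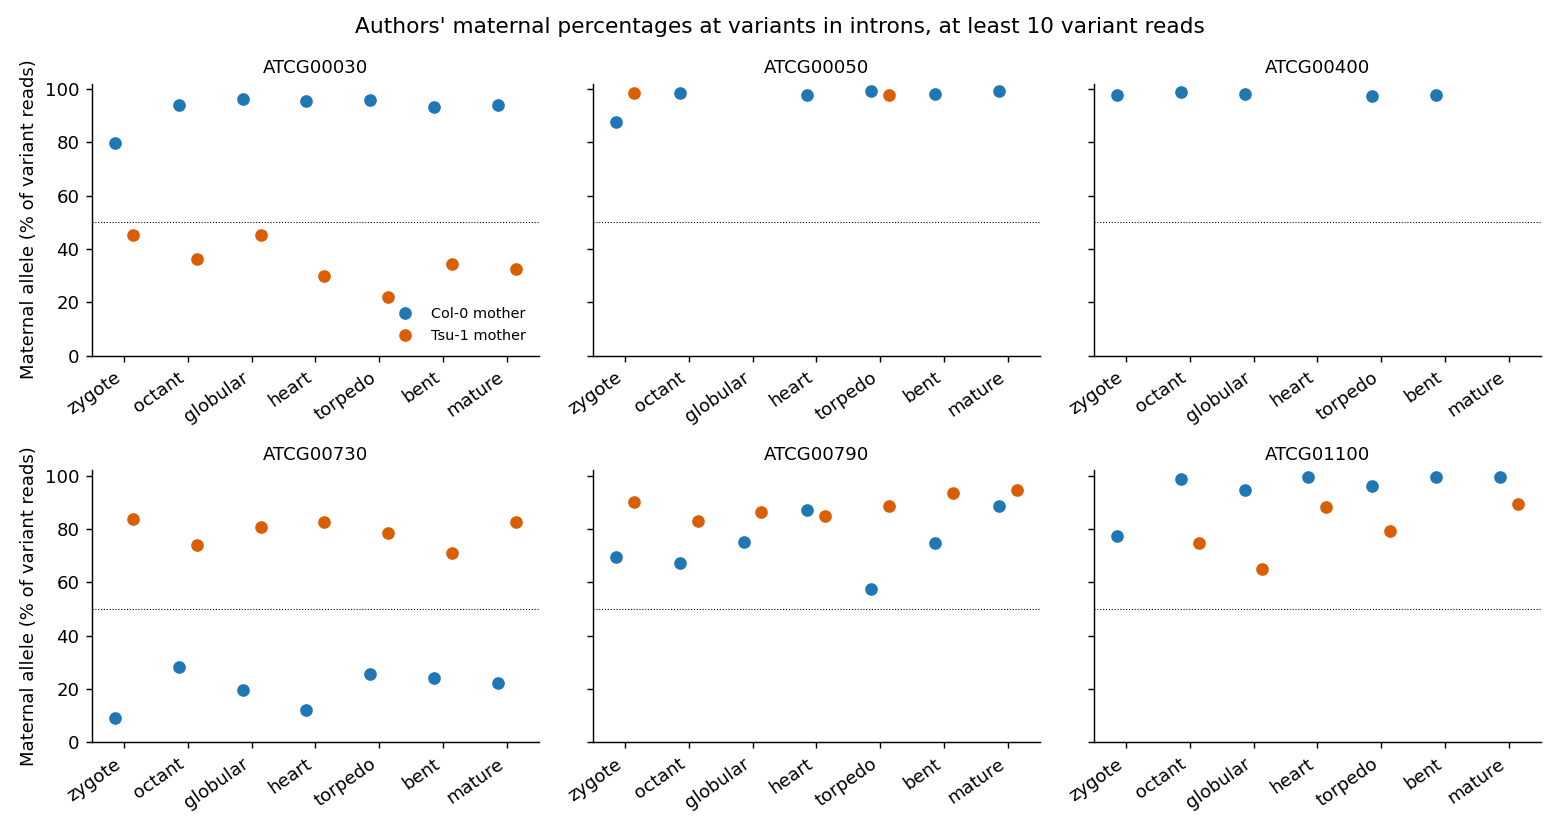
The authors' maternal percentage of variant reads in introns (vertical axis) by stage for the 6 chloroplast genes with values, where at least 10 variant reads were counted, with colour for the mother and a dotted line at 50%. The crosses lie on opposite sides of 50% at every stage for ATCG00030 and ATCG00730, and both lie above 50% wherever they have values for ATCG00050, ATCG00790 and ATCG01100.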

How the data were processed

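Per the labels' protocols, RNA of hand-isolated embryos or ovules was amplified with an antisense RNA kit and made into TruSeq libraries. Amplification can add spread that differs between genes. STAR 2.7.0d, featureCounts 1.6.0, edgeR and the TAIR10 build are named in the submitters' processing notes, with no roles or settings. Per gene, the totals the authors deposited are unnormalized expected counts, in which 114 of the 133 chloroplast genes had a value that was not whole in at least 1 library, and all values were rounded before testing. They also deposited maternal fractions per gene, given here as percentages, with adjusted p-values and counts of variant reads, pooled over the libraries of each stage and cross. There, a gene with 0 variant reads has 50%. Its test and variant calls are not stated. Its 42 columns of exonic values were not used.

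Library totals ran from 0.690 M to 60.4 M reads (M, reads divided by 1000000). Shares and CPM (a gene's reads scaled to a library of 1000000) were computed from each library's total, with Wilson 95% intervals. The test across all genes was the two-sided quasi-likelihood F test of edgeR 4.0.16 (R 4.3.3), after filterByExpr and with TMM scaling, Benjamini-Hochberg adjustment over all genes tested and a threshold of 0.05. Each step used the libraries of its 2 stages, with cross as a covariate, ovule to zygote without it, reciprocal crosses in a group-means model of all libraries, and interactions on the libraries of a step. The procedure was tested on simulated data. DESeq2 1.42.0, other scalings, no filter, a replicate block, other sets of libraries and leaving out each library were alternatives. Python 3.11.15 with pandas 2.3.3, numpy 2.4.6, scipy 1.17.1 and matplotlib 3.10.9 did the rest.

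The members and lists were chosen with earlier results of these data known. Genes were named as the 10 highest by CPM, the genes with an annotation name that were called, and up to 2 called genes without a name in each direction by size of change, kept to that number because the files pair no names with the identifiers. A gene covered by this rule is not reported here. For the same reason the planned functional classes, ranking per length of all genes, exclusion of rRNA and tRNA genes and search of promoter motifs were not used. Pairs with matching counts stood in for the inverted repeat. They needed at least 20 reads in at least 10 libraries. This stand-in was chosen after the data were seen. Of 75 marker and nuclear list genes, 75 were found in the RefSeq table.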

Additional observations from a re-analysis of the deposited data

Results flagged for a closer look

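Among 48 sets of the 4 libraries of a stage, 6 held a library far from the other 3 by Dixon's test, and chance alone would flag about 1 in 20 sets. The first heart Tsu-1-mother library gave 4 of these: its chloroplast share was 2.37% of reads, ATCG01130 made up 37.9% of its chloroplast reads and had 8979 CPM, and ATCG00430 had 61.9. The second mature Col-0-mother library had 8.61 CPM of cemA (ATCG00530). The second bent Col-0-mother library had 48.5 of clpP (ATCG00670).

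The interaction tests flagged steps in which the crosses differed. The counts of chloroplast genes called by edgeR were 43 from zygote to octant, 1 from octant to globular, 18 from heart to torpedo, 1 from torpedo to bent and 28 from bent to mature. All values of the first step rest on the single Col-0-mother zygote library. Differences in log2 change in that step, as Tsu-1-mother minus Col-0-mother, were 5.70 for ATCG00330, -3.75 for ATCG00450, -1.85 for cemA (ATCG00530), 7.90 for ATCG00630, 4.88 for rpl20 (ATCG00660), 3.15 for clpP (ATCG00670), -2.53 for ATCG01070, 3.69 for ATCG01130 and 2.48 for rpl2 (ATCG01310). ATCG00630 had 0 reads in both Tsu-1-mother zygote libraries, so its fitted value depends on the prior count.

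From octant to globular the difference was -2.19 for ATCG00470. From heart to torpedo it was 5.77 for ATCG00340, -3.19 for ATCG00620, 3.63 for ATCG00780 and -8.55 for ATCG01020, the last with 19.6 and 901 CPM in the Col-0-mother torpedo libraries. From torpedo to bent it was -3.81 for ATCG00570. From bent to mature it was 9.03 for ATCG00910 and 9.07 for ATCG01220, both with 0 reads in both bent Tsu-1-mother libraries, and -5.05 and -4.96 for the matched pair ATCG00930 and ATCG01200.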

How the results depend on the processing

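Among the named genes' values under the alternatives, 796 kept direction and call, 212 lost the call and 0 reversed. These values were picked as called in the same data, so a kept direction is not separate support. Most of the lost calls came from leaving out a library. Without the filter on low counts, genes called were 37 (octant to globular), 28 (globular to heart), 35 (heart to torpedo), 57 (torpedo to bent), 76 (bent to mature), 27 (ovule to zygote), 59, 2, 11, 36 and 64 (crosses at zygote, octant, globular, heart and torpedo), and for interactions 20, 13, 61, 48 and 60 in the 5 steps from octant on. DESeq2 gave 17, 24, 42, 60 and 32 (globular to heart, heart to torpedo, torpedo to bent, bent to mature, ovule to zygote), 6 for crosses at globular and 3, 2, 37 and 17 for interactions from octant to bent. Fitting all libraries together gave 24, 36, 52, 73 and 67 for the same 5 comparisons. Octant libraries alone gave 40. Library totals gave 73 (torpedo to bent), 21 (bent to mature) and 3 (interaction, octant to globular), and RLE size factors 0 (interaction, torpedo to bent). No share of all genes called is given beside these counts. The causes were not tested.

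Replicate numbers are shared across groups, but nothing says that they pair libraries. Same-numbered libraries of the crosses at a stage deviated with correlations of -0.196 to 0.0349. Across stages, the Col-0-mother groups at globular, torpedo, bent and mature correlated at 0.169 to 0.420, and all pairs of groups at -0.282 to 0.420. With a replicate block, counts were 2 (ovule to zygote) and 0, 9 and 0 (interactions octant to globular, heart to torpedo and torpedo to bent), and the other counts stayed within 1.5 times.

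Leaving out each library gave 40 to 74 genes (zygote to octant), 13 to 27 (octant to globular), 4 to 13 (globular to heart), 7 to 26 (heart to torpedo), 19 to 50 (torpedo to bent), 17 to 57 (bent to mature) and 0 to 65 (ovule to zygote). For the crosses it gave 21 to 36, 0 to 0, 0 to 3, 1 to 13, 13 to 34, 16 to 58 and 10 to 23 from zygote to mature, and for interactions 24 to 70, 0 to 14, 0 to 0, 0 to 30, 0 to 11 and 0 to 50. The share ranged over 0.179% to 0.437% at zygote, 1.05% to 1.30% at octant, 0.528% to 0.723% at globular, 0.668% to 1.28% at heart, 1.14% to 1.70% at torpedo, 0.341% to 0.544% at bent, 0.194% to 0.294% at mature and 0.407% to 0.408% in ovules.

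Without the gene with the most reads the octant share was 0.552% and the ovule share 0.356%. With nuclear reads as denominator the ovule share was 0.410%, and without the matched pairs 0.323%. At 50 variant reads 7 and 0 parental values were called maternal. The share without rRNA and tRNA genes was not run. Depth limits the genes seen in the 3 shallow libraries.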
